A study of Mus musculus with 9 samples.

Results

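The 33 glutamate and GABA receptor genes described here were chosen by name among the 55471 Ensembl genes of the count table, with earlier results of these data known. They comprise 4 subunits of AMPA receptors, 5 of kainate receptors, 7 of NMDA receptors, 1 delta receptor, 7 metabotropic glutamate receptors, 7 subunits of GABA-A receptors and both subunits of the GABA-B receptor. RNA was sequenced from the gastrocnemius, the large calf muscle, of 5 Shank3Δ11(-/-) mice, whose copies of Shank3 both miss exon 11 and which came from matings of heterozygous C57BL/6JRj mice, and 4 Shank3(+/+) mice. All 9 are labelled C57BL/6 and postnatal day 0 to 1. The mice are named KO1 to KO5 and WT1 to WT4 below, with 1 library per mouse, and neither sex nor litter is given in the labels. As in the study, KO1, KO3 and KO5 were compared with WT1 to WT4. KO2 and KO4, left out by the study for too few reads, entered a second round of every comparison. Library totals ranged from 26444372 to 40471957 counts on genes, with a median of 31435732. The lowest total was that of KO5 and the highest that of KO4. A list of 11 skeletal muscle genes summed to 55139 to 63442 CPM (read counts relative to library size) in the 9 mice, so the libraries carry the labelled tissue. Shank3 itself was counted at 25.7 to 35.0 CPM in the 5 Shank3Δ11(-/-) mice and at 32.4 to 38.5 CPM in Shank3(+/+), but reads outside exon 11 enter this count, so it does not check the deletion.

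Glutamate and GABA are the main excitatory and inhibitory transmitters of the brain. AMPA, kainate, NMDA and GABA-A receptors are ion channels built from several subunits around a pore, whereas metabotropic glutamate receptors and the GABA-B receptor act through G proteins. Shank3 is a scaffold protein beneath glutamate receptors at excitatory synapses. The vertebrate nerve-muscle synapse, by contrast, works with acetylcholine, so these receptors are not the ones that drive muscle contraction. The question here was which of them newborn muscle transcribes, and whether their levels differed between Shank3 genotypes.

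A receptor gene was taken to be expressed when its mean over the 4 Shank3(+/+) mice was at least 1 CPM. Of the 33 genes 13 reached this level, 20 were counted below it, and 0 were without a count in all 9 mice. In falling order of CPM the 13 genes were Gabbr1, Grik5, Gria3, Gabra3, Grin3b, Grik2, Grin2d, Gria4, Grid1, Grin3a, Gabra4, Grik3 and Grin2b. 12 of them were at 1 CPM or more in each Shank3(+/+) mouse, and 10 in each of the 9 mice. 16 genes stayed under 1 CPM in every mouse. Closest to the limit were Grin2b with 1.22 CPM on the upper side and Grin2a with 0.993 CPM and Gria2 with 0.945 CPM on the lower. Gabbr1, Grik5 and Gria3 alone held 74.6% of the 38412 counts on all 33 genes. In whole muscle, fewer cells of a type cannot be told apart from less RNA per cell. Reads of nerve, vessel or connective tissue cells enter these values too. The 11 genes of a neuron list summed to 52.6 to 71.0 CPM, mostly from Uchl1 and Gap43, and the synaptic gene Snap25 did not exceed 0.308 CPM in any mouse. The 10 genes of a Schwann cell list, the glia of peripheral nerve, summed to 426 to 602 CPM with none at 0. Which cells the receptor reads came from was not tested.

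**Figure D1:**
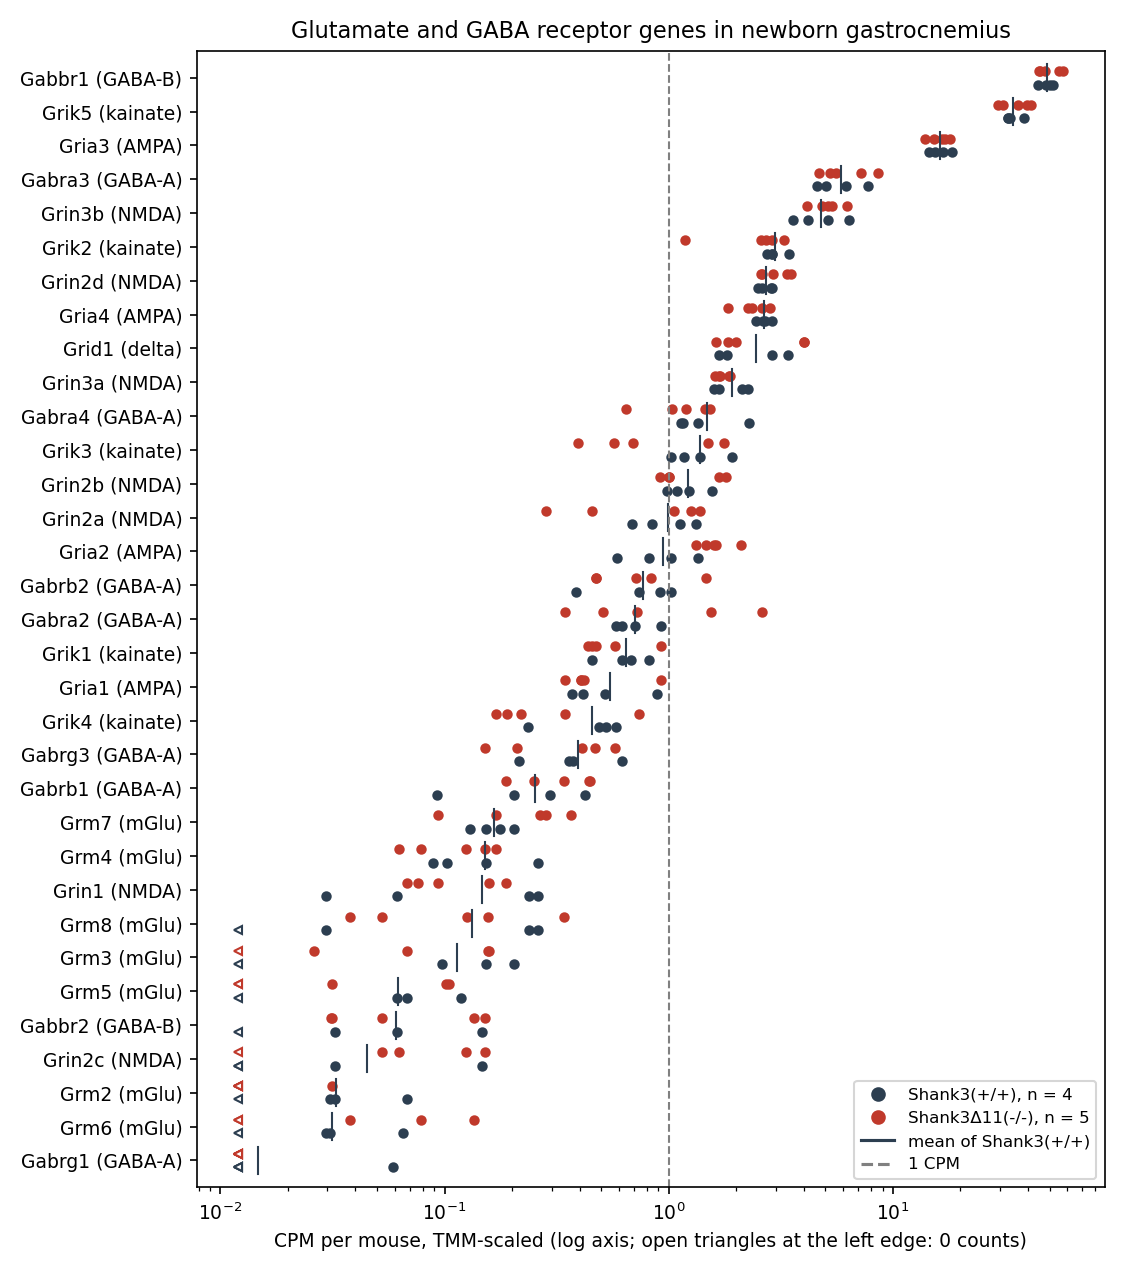
CPM of the 33 receptor genes in each of the 9 mice on a log axis, sorted by the mean of the 4 Shank3(+/+) mice (vertical bar), with open triangles for mice with 0 counts and a dashed line at 1 CPM. Gabbr1, Grik5 and Gria3 lie above 10 CPM in every mouse, and the 2 genotypes overlap for every gene.

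The 2 subunits of the GABA-B receptor stood at opposite ends. Gabbr1 (ENSMUSG00000024462, GRCm38 chr17:37045966-37075067, plus strand) encodes the subunit that binds GABA, and Gabbr2 (ENSMUSG00000039809, chr4:46662305-46991873, minus strand) the partner that carries it to the cell surface and couples to the G protein. Gabbr1 was counted at 51.6, 50.1, 48.1 and 44.2 CPM in WT1 to WT4, and Gabbr2 at 0.0615, 0.148, 0 and 0.0325 CPM in the same mice. The Gabbr2 reads were 8 counts in all 4 Shank3(+/+) mice and 12 in all 5 Shank3Δ11(-/-) mice. Every mouse thus held far more Gabbr1 than Gabbr2, and the ratio of the pooled levels per kb of exons in Shank3(+/+) was 661. Because 8 counts carry a wide counting error, only the order of magnitude of this ratio is firm. The promoters of the 2 genes are shown because their CG content runs against this order. Each is the RefSeq window on GRCm38.p6 from 250 bases before to 50 bases after the start of transcription, written 5′ to 3′ on the gene's strand with every CG in capitals, at chr17:37045716-37046015 for Gabbr1 and chr4:46991665-46991964 for Gabbr2.
Gabbr1: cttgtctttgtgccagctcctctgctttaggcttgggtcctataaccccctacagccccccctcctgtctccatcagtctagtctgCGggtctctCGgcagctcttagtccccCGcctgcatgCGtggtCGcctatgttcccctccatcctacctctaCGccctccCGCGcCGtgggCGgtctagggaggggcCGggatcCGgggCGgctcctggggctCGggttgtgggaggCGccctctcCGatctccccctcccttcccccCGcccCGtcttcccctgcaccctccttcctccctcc
Gabbr2: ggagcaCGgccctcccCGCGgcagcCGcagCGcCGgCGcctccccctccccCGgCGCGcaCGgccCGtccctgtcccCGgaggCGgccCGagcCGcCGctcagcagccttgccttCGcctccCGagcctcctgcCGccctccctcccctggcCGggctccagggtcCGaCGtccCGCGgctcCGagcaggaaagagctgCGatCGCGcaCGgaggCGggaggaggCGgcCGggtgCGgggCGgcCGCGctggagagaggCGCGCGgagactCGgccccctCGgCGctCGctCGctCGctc
The Gabbr1 window holds 18 CG and the Gabbr2 window 46, and 29.7% and 1.65% of the 32851 RefSeq promoter windows hold at least as many. The letter pair reads the same on both strands, and its number is a description of the window only.

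Kainate receptors were the other abundant class, again with uneven subunits. Grik5 (ENSMUSG00000003378, chr7:25009849-25072346, minus strand) encodes a subunit that forms channels only together with Grik1, Grik2 or Grik3. Grik5 was at 32.5, 33.3, 32.8 and 38.2 CPM in WT1 to WT4. Grik2 was at 2.89, 2.89, 3.45 and 2.73 CPM and Grik3 at 1.38, 1.92, 1.02 and 1.17 CPM in the same mice. Per kb of exons, the scale on which genes of different length can be compared, Grik5 stood at 6.62 ± 0.525 (SD, n = 4), Grik2 at 0.226 ± 0.0236 and Grik3 at 0.153 ± 0.0437. Grik5 thus stood far above each possible partner in all 4 mice. The ratio of pooled levels per kb of Grik5 to Grik2 was 29.4, with a range of 24.4 to 85.7 over the 9 single mice. Grik1 ranged from 0.438 to 0.919 CPM and Grik4, which like Grik5 needs a partner, from 0.170 to 0.735 CPM over the 9 mice. The AMPA receptor genes, whose products carry fast excitatory currents in the brain, followed with Gria3 (ENSMUSG00000001986, chrX:41400854-41678601, plus strand) in front. Gria3 was at 16.8, 15.5, 18.4 and 14.5 CPM in WT1 to WT4 and Gria4 at 2.68, 2.89, 2.63 and 2.44 CPM. Gria2, whose edited subunit keeps calcium out of the channel, was at 1.35, 0.591, 1.02 and 0.813 CPM in the same mice. Gria3 was the leading AMPA gene in every mouse. Pooled over Shank3(+/+), the level per kb of Gria3 was 3.90 times that of Gria4 and 27.2 times that of Gria2. Gria1 ranged from 0.346 to 0.919 CPM over the 9 mice.

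Of the NMDA receptor genes 4 of 7 reached 1 CPM, but not Grin1, whose product binds the co-agonist glycine and is part of every NMDA receptor. Grin1 had 37 counts over 9 mice and did not exceed 0.26 CPM. 13.5% of its exon bases overlap an antisense gene, so even these reads are uncertain. Grin3b was the highest of the class at 5.11, 6.35, 3.58 and 4.16 CPM in WT1 to WT4. It shares 32.1% of its exon bases with Tmem259 on the opposite strand, which was counted at 94.3 to 133 CPM. Since no source used here says whether strand was used in counting, the Grin3b value is uncertain. Grin2d was at 2.86, 2.60, 2.49 and 2.89 CPM in the same mice, with 9.66% of exon bases shared with an antisense gene. Grin3a, free of such overlap, was at 2.25, 2.13, 1.67 and 1.59 CPM. Grin2b was at 0.984, 1.09, 1.23 and 1.56 CPM and Grin2a at 1.32, 1.12, 0.682 and 0.845 CPM, and Grin2a is given by mouse because it lies nearest the limit. Grin2c had 18 counts in 6 of the mice. The level per kb of Grin2d was 27.8 times that of Grin1 in pooled Shank3(+/+). Grid1, a delta receptor that acts as a synaptic organizer, was at 1.82, 1.68, 2.90 and 3.41 CPM in WT1 to WT4, with WT3 and WT4 above WT1 and WT2.

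Metabotropic glutamate receptors were close to the floor as a class. None of the 7 genes reached 1 CPM in any mouse, and together they held 194 counts, 0.505% of the counts on all 33 genes. Most counts fell on Grm7 with 59 and 0.0939 to 0.368 CPM, followed by Grm8 with 38 counts, Grm4 with 37, Grm3 with 27, Grm5 with 16, Grm6 with 12 and Grm2 with 5. Grm2 and Grm6 share 9.60% and 11.1% of their exon bases with antisense genes. A group of 4 mice without a single count would still allow up to 0.0240 CPM, and a group of 5 up to 0.0188 CPM, when 3 counts over the group are taken as the limit of a count of 0. This limit covers counting error only.

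GABA-A receptor channels are built from alpha, beta and a further kind of subunit such as gamma. Gabra3 (ENSMUSG00000031343, chrX:72432681-72656848, minus strand), an alpha subunit, led with 4.58, 5.05, 7.74 and 6.15 CPM in WT1 to WT4. Gabra4, another alpha subunit, was at 1.35, 1.15, 2.29 and 1.14 CPM, and Gabra2 at 0.923, 0.709, 0.580 and 0.618 CPM. Over the 9 mice the beta subunits ranged from 0.384 to 1.47 CPM for Gabrb2 and from 0.0923 to 0.446 CPM for Gabrb1. In each Shank3(+/+) mouse both stayed below Gabra3 and Gabra4 also per kb, whereas Gabrb2 lay above Gabra4 in KO1 and KO5. Of the gamma subunits Gabrg3 ranged from 0.152 to 0.620 CPM, and Gabrg1 had 2 counts, both in WT2. No beta or gamma gene in the list reached a mean of 1 CPM in Shank3(+/+), and the level per kb of Gabra3 was 12.6 times that of Gabrb2 and 81.1 times that of Gabrb1. Gabrg1, Gabra2, Gabra4 and Gabrb1 lie next to each other on chromosome 5, and the Gabra4 and Gabrb1 models start head to head and share some bases. Over this stretch Gabra4 was per kb the highest and Gabrg1 the lowest of the 4 genes in every Shank3(+/+) mouse. The Gabra3 promoter window at chrX:72656870-72657169 is shown because it holds no CG at all.
Gabra3: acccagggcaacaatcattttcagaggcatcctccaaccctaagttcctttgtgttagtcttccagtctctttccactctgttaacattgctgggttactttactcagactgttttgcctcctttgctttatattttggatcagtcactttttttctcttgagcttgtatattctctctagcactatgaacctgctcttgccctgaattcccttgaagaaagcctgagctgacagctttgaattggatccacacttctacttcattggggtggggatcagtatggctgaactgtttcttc
Every RefSeq promoter window has at least as many CG as this. Of the matched genes 5 have several windows. With the window of most CG for each gene the median was 12 CG over the 9 genes at 1 CPM that have an entry and 22 over the 15 genes below 1 CPM, with the window of fewest CG it was 12 and 13, and over all windows it was 7. The windows of Grik3 and Gabbr2 had 50 and 46 CG and those of Gabra3 and Grin3b 0 and 3, so CG number did not follow the order of CPM. The other 9 genes were not matched.

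**Figure D2:**
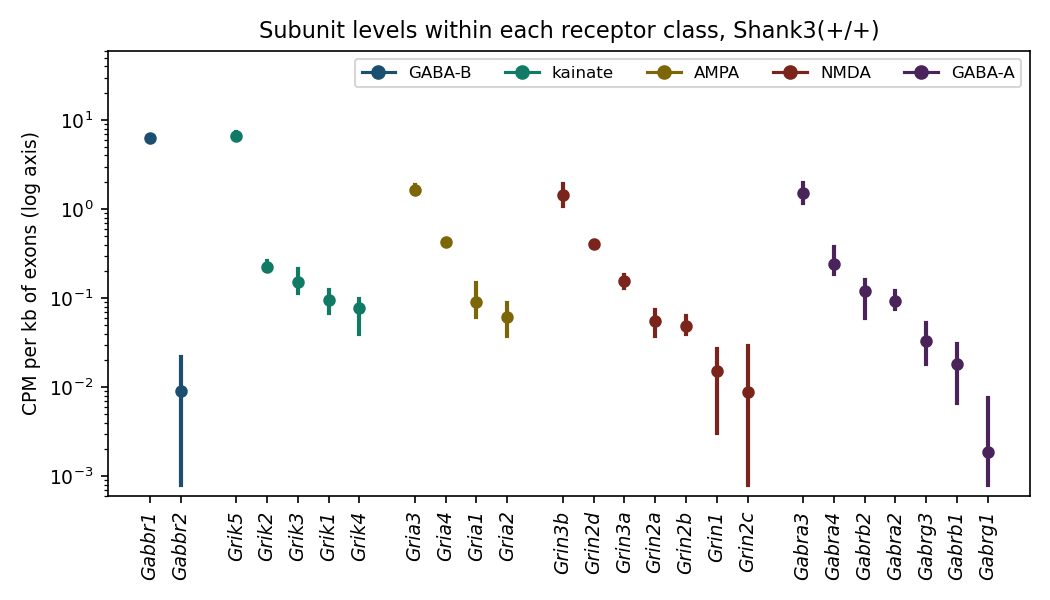
Level of each subunit gene per kb of its exons on a log axis, as the mean (point) and range (line) of the 4 Shank3(+/+) mice, grouped by receptor class, with ranges that reach 0 cut at the bottom. In each class 1 gene stands above the rest of its class, Gabbr1, Grik5, Gria3, Grin3b and Gabra3, and Gabbr2, Grin1 and Gabrg1 lie near the bottom.

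Ordered by level per kb of exons, Grik5 with 6.62 and Gabbr1 with 6.25 CPM per kb came first, and their ranges over the Shank3(+/+) mice overlapped. Gria3 with 1.65, Gabra3 with 1.50 and Grin3b with 1.46 CPM per kb formed the next step and overlapped with each other, but not with the genes above or with Gria4 below. Only these 5 genes reached 1 CPM per kb. Gria4 with 0.422, Grid1 with 0.411 and Grin2d with 0.407 CPM per kb could not be ordered either. From there the levels fell without a gap, except between Grik2 and Grin3a. In relation to the 21765 genes tested with a known exon length, 65.8% had a lower level per kb than Grik5, 35.0% a lower one than Gria3, and 13.9% a lower one than Gria4. Even the leading receptor genes were thus moderate in this muscle.

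In Shank3Δ11(-/-) muscle the same genes led, with similar levels. Gabbr1 was at 45.3, 54.9 and 44.6 CPM in KO1, KO3 and KO5 and at 47.6 and 57.6 CPM in KO2 and KO4. Grik5 was at 29.5, 41.3 and 31.0 CPM in KO1, KO3 and KO5 and at 35.9 and 39.5 CPM in KO2 and KO4. Gria3 was at 15.2, 17.9 and 17.1 CPM in KO1, KO3 and KO5 and at 16.5 and 13.9 CPM in KO2 and KO4. For all 3 genes the ranges of the 2 genotypes overlap, though KO3 and KO4 lay above all Shank3(+/+) mice for Gabbr1 and Grik5, KO1 and KO5 below all of them for Grik5, and KO4 below all of them for Gria3. The log2 fold change of 3 against 4 mice in edgeR's quasi-likelihood test was -0.02 for Gabbr1 (standard error 0.11, exact permutation test p = 0.971), -0.02 for Grik5 (standard error 0.14, p = 0.857) and 0.03 for Gria3 (standard error 0.13, p = 0.714), each with a Benjamini-Hochberg FDR of 1.00. With all 9 mice these values were 0.04, 0.05 and -0.01, so the sign of each changed with the mice included.

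Among the 33 genes 21 passed edgeR's filter on low counts for 7 mice, and they included all 13 genes at 1 CPM. The other 12 were too low to be tested. Of the 21 tested genes 7 were higher and 14 lower in Shank3Δ11(-/-), 0 had an unadjusted p below 0.05 in edgeR beside 2.08% of all 21809 genes tested, and 0 were called at p below 0.05 with FDR below 25% (0% of all genes). DESeq2 gave 0 receptor genes with p below 0.05 (1.8% of all genes) and 0 called (0.0275%), and limma-voom gave 1 with p below 0.05, Gria2 (1.95%). Their median log2 fold change was -0.08, against -0.01 for all genes tested, of which 52.2% were lower. Without regard to sign the median was 0.25 for the receptor genes, with a median standard error of 0.29, and 0.10 for all genes tested. For none of the 21 did the 3 and 4 mice fail to overlap, which 2.84% of all genes tested did. With all 9 mice 22 genes were tested, with Gabrb1 at 0.40 as the one added, 11 higher and 11 lower, with a median of 0.01, 1 at p below 0.05 (2.03% of all genes tested) and 0 called (0%), and again no gene had 5 and 4 mice without overlap (0.686% of all genes). Of the 21 genes tested in both, 16 kept their direction. The 2 comparisons share the Shank3(+/+) mice and KO1, KO3 and KO5. Separate mice were the replicates throughout.

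**Figure D3:**
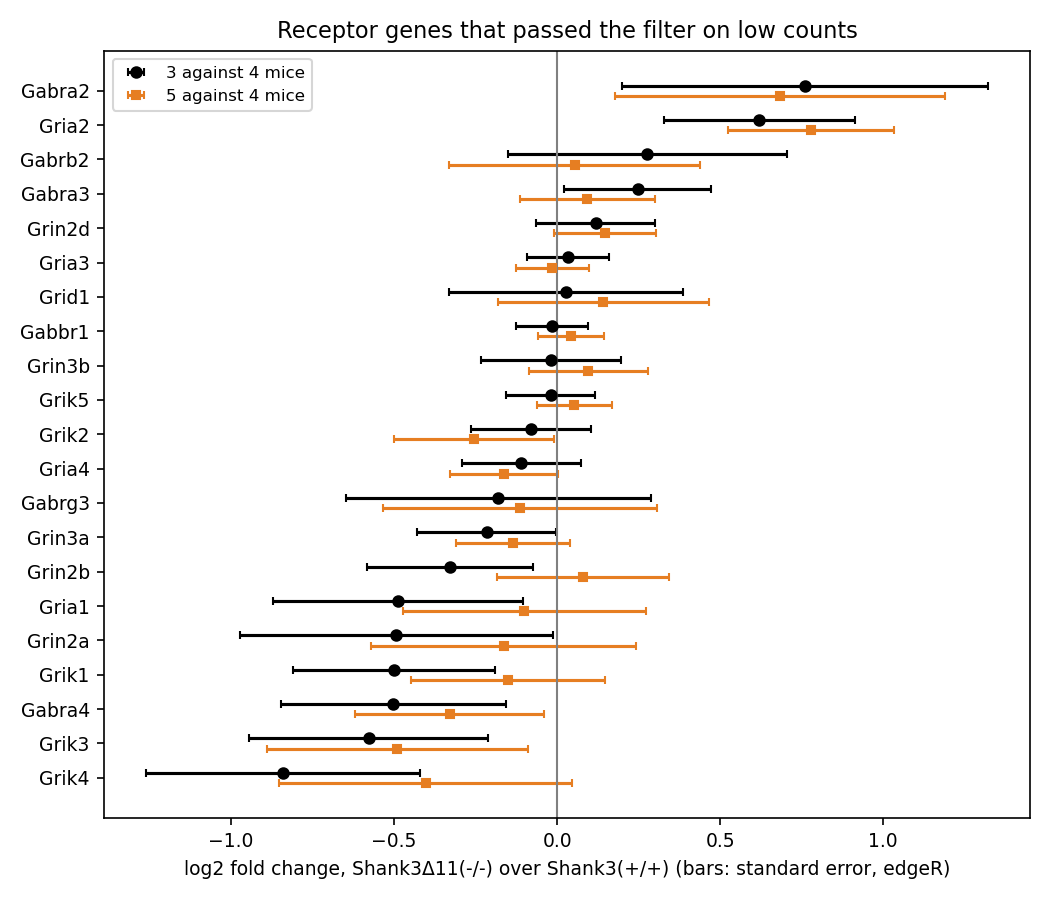
Log2 fold change of Shank3Δ11(-/-) over Shank3(+/+) with its standard error from edgeR for the 21 receptor genes tested, with 3 against 4 mice (circles) and 5 against 4 mice (squares). Most intervals of 1 standard error cross or come close to 0, and the largest changes belong to low genes.

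Gria2 was the single gene with p below 0.05 in the 9 mice. It was at 1.47, 1.32 and 1.59 CPM in KO1, KO3 and KO5, at 2.10 and 1.63 CPM in KO2 and KO4, and at 1.35, 0.591, 1.02 and 0.813 CPM in WT1 to WT4. All 5 Shank3Δ11(-/-) mice were above WT2, WT3 and WT4, and only WT1 lay within their range. The log2 fold change was 0.62 (standard error 0.29, p = 0.0585, FDR = 1.00 in edgeR, exact permutation test p = 0.0857) with 3 against 4 mice and 0.78 (standard error 0.26, p = 0.0097, FDR = 1.00, exact permutation test p = 0.0159) with 5 against 4. The smallest p these exact tests allow is 0.0286 and 0.00794. Gria2 therefore did not pass the adjustment over all genes in either comparison. Leaving out WT2 lowered its log2 fold change in 7 mice to 0.45, and leaving out WT1 raised it to 0.85, with p below 0.05 and an FDR of 1.00 in edgeR. With the replicate number as a block it was 0.23 (standard error 0.29) in 7 mice and 0.81 (standard error 0.30) in all 9, with an adjusted p (FDR) of 1.00 in edgeR in both. Such a block uses only numbers held by both genotypes, so in 7 mice it compared KO1 with WT1 and KO3 with WT3. KO5, which has no Shank3(+/+) mouse of its number, had no weight in either block.

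In edgeR's comparison of 3 with 4 mice Gabra2 had the largest positive estimate, and it turned on KO5. Gabra2 was at 0.344, 0.723 and 2.62 CPM in KO1, KO3 and KO5, at 0.509 and 1.55 CPM in KO2 and KO4, and between 0.580 and 0.923 CPM in Shank3(+/+). KO4 and KO5 lay above all Shank3(+/+) mice and KO1 and KO2 below all of them. The log2 fold change of 0.76 (standard error 0.56, p = 0.204 in edgeR, exact permutation test p = 0.714) turned to -0.42 without KO5 and was 0.24 in limma-voom. With the replicate number as a block it was -0.52, but this block gives KO5 no weight and so is not a separate check. KO5 also stood apart in other cell type lists. The 6 genes of an adipocyte list summed to 1128 CPM in KO5 against 186 to 403 CPM in the other 8 mice, each of the 6 being highest in KO5, with Adipoq at 78.6 CPM. The 10 Schwann cell genes summed to 602 CPM in KO5 against 426 to 528 CPM, with 3 of the 10 highest in KO5, among them Mbp, which encodes a myelin protein. Smooth muscle and pericyte genes summed to 1191 CPM in KO5 against 929 to 1054 CPM, and cartilage and bone genes to 39.8 CPM, the lowest of the 9 mice. Their part in the Gabra2 value was not tested.

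The lowest negative estimates belonged to low genes as well. Grik3 was at 1.50, 0.692 and 0.569 CPM in KO1, KO3 and KO5 and at 1.76 and 0.394 CPM in KO2 and KO4, against 1.02 to 1.92 CPM in Shank3(+/+). KO3, KO4 and KO5 lay below all Shank3(+/+) mice, whereas KO1 and KO2 lay among them. Its log2 fold change was -0.58 (standard error 0.37, p = 0.144 in edgeR, exact permutation test p = 0.229), and -1.12 without KO1. It was smaller in size without KO5 at -0.34, without WT2 at -0.37, and with the replicate block of the mice kept at -0.18. Without KO1 Grik3, Gabra2 at 1.21 and Grin2a at -1.44 on the log2 scale had p below 0.05 in edgeR, at an FDR of 1.00. KO1 stood apart in an erythroid list of 6 genes, which summed to 5774 CPM against 1223 to 2192 CPM in the other 8 mice, and its part in these values was not tested. Gabra4 was at 1.03, 1.45 and 0.645 CPM in KO1, KO3 and KO5 and at 1.19 and 1.52 CPM in KO2 and KO4, with -0.50 on the log2 scale (standard error 0.35, exact permutation test p = 0.314). WT3 was above all Shank3Δ11(-/-) mice, and the other Shank3(+/+) mice lay among them. The log2 fold change of Gabra4 was -0.21 without WT3, -0.26 without KO5 and -0.81 without KO3. Grik4 had the lowest estimate with 3 against 4 mice, -0.84 (standard error 0.42, p = 0.0719 in edgeR, exact permutation test p = 0.114), from 113 counts in 9 mice, and -0.40 with KO2 and KO4 included, where Grik3 was lower at -0.49. Without WT2 it was -1.06, with p below 0.05 and an FDR of 1.00 in edgeR.

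**Figure D4:**
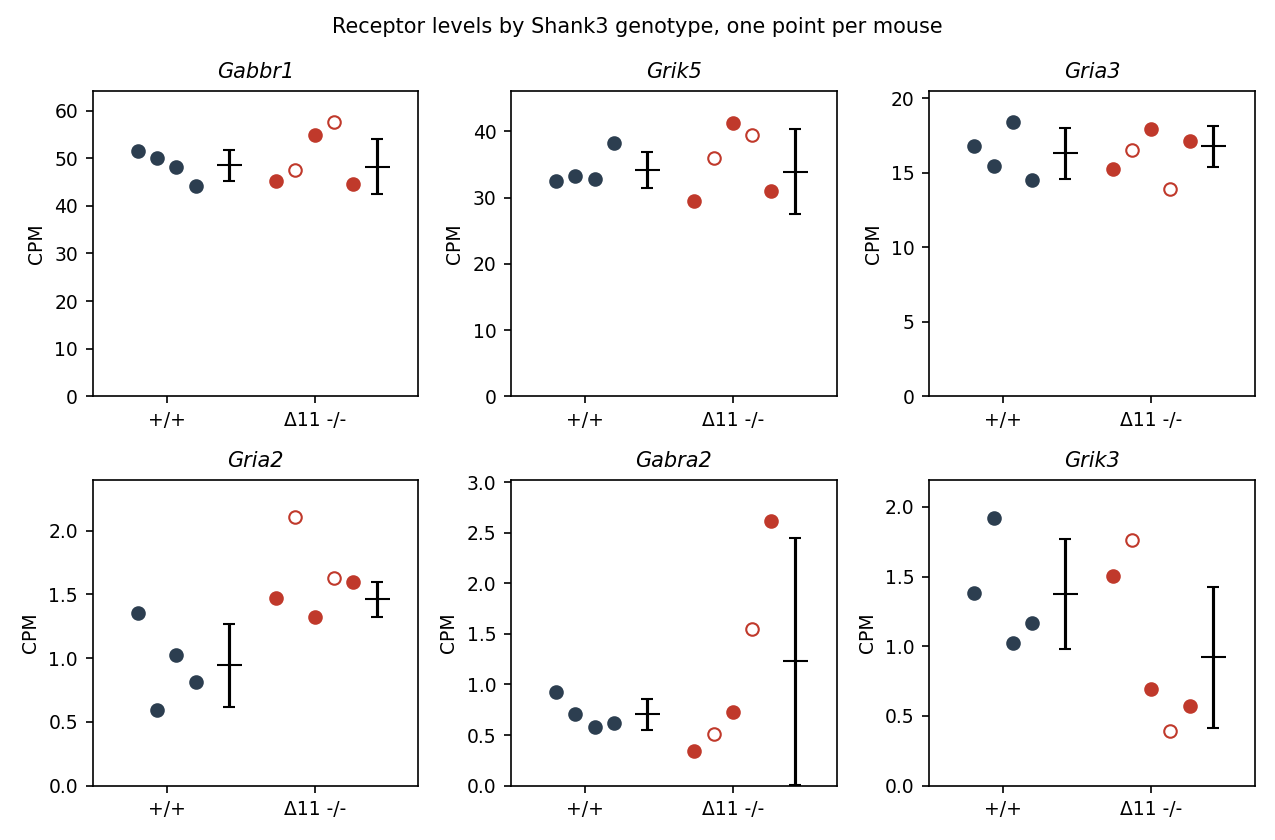
CPM of 6 receptor genes in single mice by Shank3 genotype, with open circles for KO2 and KO4, and the mean and SD of the 4 Shank3(+/+) mice and of KO1, KO3 and KO5 beside the points. For Gabbr1, Grik5 and Gria3 the ranges of the genotypes overlap, Gria2 has only WT1 within the Shank3Δ11(-/-) range, and Gabra2 has its highest value of 2.62 CPM in KO5.

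The remaining genes at 1 CPM showed smaller differences. Gabra3 was at 5.26, 8.59 and 7.21 CPM in KO1, KO3 and KO5 and at 4.68 and 5.59 CPM in KO2 and KO4, with 0.25 on the log2 scale (standard error 0.23, exact permutation test p = 0.371). This log2 value was 0.42 without KO1, 0.075 without KO3 and 0.092 with all 9 mice. Grin3b was at 4.13, 4.84 and 5.35 CPM in KO1, KO3 and KO5 and at 5.13 and 6.22 CPM in KO2 and KO4. Grik2 was at 2.57, 2.70 and 3.26 CPM in KO1, KO3 and KO5 and at 2.89 and 1.18 CPM in KO2 and KO4. In Grik2 only KO4 was apart from the other mice, while the genotypes overlapped in Gabra3 and Grin3b. Grin2d was at 3.38, 2.58 and 2.92 CPM in KO1, KO3 and KO5 and at 2.61 and 3.49 CPM in KO2 and KO4. Gria4 was at 2.82, 2.26 and 2.35 CPM in KO1, KO3 and KO5 and at 2.61 and 1.84 CPM in KO2 and KO4. Both overlapped Shank3(+/+), with log2 fold changes of 0.12 (standard error 0.18) and -0.11 (standard error 0.18). Grid1 was at 1.85, 4.03 and 1.63 CPM in KO1, KO3 and KO5 and at 4.01 and 2.00 CPM in KO2 and KO4. Grin3a was at 1.69, 1.60 and 1.67 CPM in KO1, KO3 and KO5 and at 1.87 and 1.86 CPM in KO2 and KO4. Grin2b was at 1.00, 1.01 and 0.911 CPM in KO1, KO3 and KO5 and at 1.80 and 1.68 CPM in KO2 and KO4. For Grin2b the mice kept lay at the lower edge of Shank3(+/+) and the mice left out above it, and the log2 fold change went from -0.33 (standard error 0.25) with 3 against 4 mice to 0.08 (standard error 0.26) with 5 against 4.

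In a few receptor genes some of the spread within genotypes ran along the presence of reads on the Y chromosome. The labels do not give sex, and this division, which is not a group of the study, was chosen after seeing the data. A list of 4 Y-linked genes summed to 190 to 248 CPM in KO1, KO2, KO4, WT1 and WT2 and to 0.0759 to 0.423 CPM in KO3, KO5, WT3 and WT4. Among the 7 mice kept, 1 of 3 Shank3Δ11(-/-) and 2 of 4 Shank3(+/+) mice had such reads. Gabra3, on the X chromosome, was at 4.58 to 5.59 CPM in the 5 mice with Y-linked reads and at 6.15 to 8.59 CPM in the 4 mice without. Grin2a, an NMDA receptor subunit named here after its values were seen, was at 1.05 to 1.38 CPM in the mice with Y-linked reads and at 0.283 to 0.845 CPM in the mice without. Neither gene overlapped between these mice, nor did Grin3a, and 2.36% of all genes tested did not overlap. With genotype in the model, the log2 difference of mice with against mice without Y-linked reads was -0.57 (standard error 0.13, FDR = 0.410 in edgeR) for Gabra3 and 1.19 (standard error 0.29, FDR = 0.441) for Grin2a. They were the only receptor genes of 22 with p below 0.05 there, a share near the 8.96% of all genes tested, and 0 were called (0.143%). In the 7 mice kept 4 of 21 were called, Gabra3, Grin2a, Grik3 and Grid1, where 11.1% of all genes were, and DESeq2 in the 9 mice called Gabra3 and Grin2a, where 1.82% of all genes were. The calls thus depended on the mice and the tool. Gria3, the other X-linked gene of the list, was at 13.9 to 16.8 CPM with and 14.5 to 18.4 CPM without Y-linked reads.

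**Figure D5:**
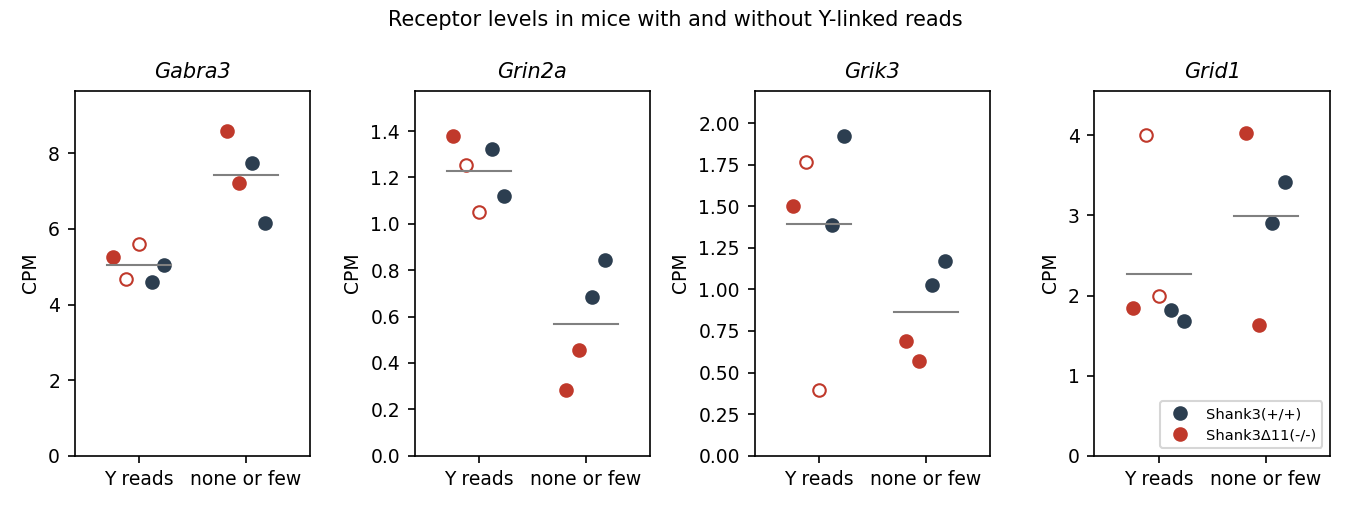
CPM of Gabra3, Grin2a, Grik3 and Grid1 in the 5 mice with Y-linked reads and the 4 mice with none or few, coloured by Shank3 genotype, with open circles for KO2 and KO4 and a line at each mean. Gabra3 and Grin2a do not overlap between the 2 sets of mice, while Grik3 and Grid1 do.

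Within these divisions the genotype difference kept its sign for some genes and not for others. For Gria2 the mean log2 CPM of Shank3Δ11(-/-) minus Shank3(+/+) was 0.89 among the 5 mice with Y-linked reads and 0.63 among the 4 without. For Gabra3 it was 0.10 and 0.19, for Gabbr1 -0.03 and 0.10, and for Grik5 0.08 and 0.02. For Grik3 it was -0.63 and -0.74. For Gabra2 it was -0.27 and 1.13, and for Grin2b 0.46 and -0.50. Of these 7 genes Gabra2, Grin2b and Gabbr1 differ in sign between the divisions. Without KO2 and KO4, KO1 was the only Shank3Δ11(-/-) mouse with Y-linked reads. KO1 minus the mean of WT1 and WT2 was 0.67 for Gria2, 0.13 for Gabra3, -0.17 for Gabbr1, -0.16 for Grik5, -0.11 for Grik3, -1.10 for Gabra2 and -0.047 for Grin2b. By these values Gabra2, Gabbr1 and Grik5 differ in sign from the mice without Y-linked reads, and Grin2b does not. With KO1 alone in that group, these signs cannot be told apart from traits of this mouse. The test of the difference between divisions in 9 mice gave an FDR of 0.980 for Gabra2, 0.980 for Grin2b and 0.983 for Gabbr1 in edgeR. For Grin2b the estimate was 1.06 (standard error 0.48) with an unadjusted p of 0.0493 in edgeR. With the level of Y-linked genes as a covariate, 0 receptor genes had p below 0.05 for genotype in 7 mice and 1 in 9 mice, Gria2 with a log2 fold change of 0.77 (standard error 0.26, FDR = 1.00 in edgeR).

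Genes around the receptors were looked at in 7 lists of 75 genes for transmitter synthesis and transport, auxiliary subunits and scaffolds. 49 of the 75 were at 1 CPM or more, and Slc17a6, a vesicular glutamate transporter, had 0 counts in every mouse. All 6 genes of glutamate synthesis and breakdown were at 1 CPM, led per kb by Glul, glutamine synthetase, with 162 ± 66.8 CPM (SD, n = 4), and Got2, a mitochondrial transaminase, with 186 ± 27.1 CPM in Shank3(+/+). The list of glutamate enzymes was thus expressed in full. By contrast only 3 of 9 genes for GABA were at 1 CPM, among them the transporter Slc6a13 with 24.4 ± 2.94 CPM and the GABA transaminase Abat with 29.7 ± 14.2 CPM. The GABA synthesizing enzymes Gad1 and Gad2 had means of 0.0570 and 0.0248 CPM. Newborn muscle therefore held reads for GABA breakdown and transport, and hardly any for its synthesis. Of 8 genes around the GABA-B receptor Kctd12, which binds its carboxyl end, was the highest with 203 ± 32.6 CPM, followed per kb by Kctd12b with 23.7 ± 5.42 CPM. Of 10 glutamate transporter genes 7 were at 1 CPM, with the neutral amino acid carriers Slc1a5 at 57.4 ± 3.59 CPM and Slc1a4 at 23.6 ± 8.21 CPM in front. Among 17 auxiliary subunits 8 were at 1 CPM, led by Cacng7, of the family that escorts AMPA receptors, with 22.0 ± 1.51 CPM and Nsg1 with 14.9 ± 2.65 CPM. Scaffold and trafficking proteins hold receptors at the membrane or carry them there. Of 17 scaffold and trafficking genes 16 were at 1 CPM, with Gabarap at 129 ± 5.83 CPM and Gabarapl1 at 31.1 ± 3.76 CPM on top. Of 8 genes for NMDA receptor co-agonists 6 were at 1 CPM, led by the serine hydroxymethyltransferases Shmt2 with 46.3 ± 13.7 CPM and Shmt1 with 44.0 ± 6.20 CPM.

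Between genotypes no gene of these lists was called. Of 55 tested in 7 mice 22 were higher and 33 lower in Shank3Δ11(-/-), 2 had p below 0.05 in edgeR (2.08% of all genes), 0 were called (0%), and the median log2 fold change was -0.02. The 2 were Slc1a1, a neuronal glutamate transporter, and Lin7b, an adaptor of receptor complexes. Slc1a1 was at 0.643 ± 0.170 CPM (SD, n = 3) against 1.11 ± 0.379 CPM (SD, n = 4), which is -0.78 on the log2 scale (standard error 0.35, p = 0.0450, FDR = 1.00 in edgeR, exact permutation test p = 0.114). Lin7b was at 0.365 ± 0.0668 CPM (SD, n = 3) against 0.699 ± 0.330 CPM (SD, n = 4), which is -0.93 on the log2 scale (standard error 0.42, p = 0.0490, FDR = 1.00 in edgeR, exact permutation test p = 0.114). Neither passed the adjustment over all genes, and with all 9 mice only Lin7b kept p below 0.05 with a log2 fold change of -0.75 (FDR = 1.00 in edgeR, exact permutation test p = 0.0794).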

How the data were processed

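RNA of 9 gastrocnemius muscles, 1 library per mouse, was analysed from the raw counts per Ensembl gene that the authors deposited. Before deposit the authors aligned the reads to mm10 in HISAT2 and assigned concordant reads to genes in featureCounts, and no scaling was applied. Which annotation release was used, whether strand was used and how multi-mapping reads were treated is not given in the sources used here. Genes that overlap others are therefore uncertain. Positions and exon lengths came from GENCODE M21 on GRCm38, found for 55144 of 55471 IDs, and promoter windows from RefSeq, found for 24 of the 33 genes. CPM were scaled by TMM factors over the 9 mice, and CPM per kb divides by the merged exon length. Genes were filtered with filterByExpr (minimum count 10, minimum total 15) and tested, 2-sided, with edgeR 4.0.16 in R 4.3.3 (robust quasi-likelihood, Benjamini-Hochberg over all genes). Calls required p below 0.05 together with an FDR below 25%. Exact permutation tests, 2-sided, used log2 CPM with a prior count of 2 over all 35 or 126 splits of the mice. Members, lists and tests were chosen with earlier results of these data known. Receptor genes were given by mouse where a genotype mean reached 1 CPM, p was below 0.05 or the mice did not overlap, and pathway genes were named at p below 0.05 or as the 2 highest per kb of a list. Marker lists came from general knowledge. The Schwann cell list was shortened, for a reason unrelated to its values, by 1 gene that is not reported here. Of the marker lists, keratinocyte (7.14 to 51.2 CPM summed per mouse) and macrophage and leukocyte (69.7 to 106) genes are given here only. Alternatives were all 9 mice, other filters and scalings, DESeq2 1.42.0, limma-voom (limma 3.58.1), the replicate number as a block, the Y-linked level as a covariate, and each mouse left out. The tests were tried on simulated data. Figures were drawn with matplotlib 3.10.9.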

Additional observations from a re-analysis of the deposited data

Results flagged for a closer look

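Grik5 in Shank3(+/+) was 38.2 CPM in WT4, while WT1, WT2 and WT3 lay between 32.5 and 33.3 CPM, so WT4 stood apart from the other 3 mice by more than the 95% critical value of Dixon's test. Chance marks about 1 in 20 groups in this way, and 15 genes were looked at in 2 genotypes. Without WT4 the log2 fold change of Grik5 was 0.04.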

How the results depend on the processing

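In all 19 alternatives to the comparison of 3 with 4 mice 0 receptor genes were called. At p below 0.05 stood 1 with all 9 mice, 1 with limma-voom in 7 mice, 1 in each of the 4 added fits of 9 mice (chosen after seeing the data: DESeq2, limma-voom, the replicate block and the Y-linked level as a covariate), and 0 to 3 when a mouse was left out, with 3 without KO1, 1 without WT1 and 1 without WT2. The median log2 fold change of -0.08 became 0.015 with all 9 mice, and in 9 mice -0.0077 with the block, 0.015 with the covariate, 0.014 with DESeq2 and -0.0050 with limma-voom, and ranged from -0.12 to -0.066 when a mouse was left out. Over all genes 1 was called without a filter, 6 with DESeq2 (7 in 9 mice), and 0 to 15 when a mouse was left out.

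Replicate numbers were not taken to pair the mice, since deviations of same-numbered mice correlated at 0.373, 0.0524, 0.357 and 0.101 for numbers 1 to 4, not all above 0.1. KO1, KO3 and KO4 correlated best with the Shank3(+/+) mouse of their own number, and KO2 with WT1, which is a hint from the data and not the design. The replicate block called 9 of all genes and 0 receptor genes in 7 mice, and 2 and 0 in 9 mice. In 7 mice this block rested on KO1 with WT1 and KO3 with WT3 only, and KO5 had no weight in either.

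No receptor gene was called for genotype in any fit, so every direction that changed is that of an uncalled gene. Grik5 was at 0.052 with all 9 mice and 0.094 with the block, and -0.19 to 0.074 over the mice left out. Gabbr1 was at 0.043 with 9 mice and -0.12 to 0.035 over the mice left out. Gria3 was at -0.014 with 9 mice, -0.092 with the block and -0.018 to 0.10 over the mice left out. Grin3b was at 0.096 with 9 mice, 0.052 with the block, 0.048 with the covariate and -0.13 to 0.15 over the mice left out. Grid1 was at -0.0066 with limma-voom, -0.11 with the covariate and -0.50 to 0.25 over the mice left out, Grik2 at -0.19 to 6.2e-05, Gabra2 at -0.52 with the block and -0.42 to 1.21, and Grin2b at 0.080 with 9 mice. The cause was not tested.

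The number of receptors at 1 CPM was 13 or 14 when a Shank3(+/+) mouse was left out and 5 on the scale of 1 CPM per kb. Under a limit of 10 counts over 9 mice, 2 receptor genes, Gabrg1 and Grm2, would count as absent. Between mice with and without Y-linked reads (chosen after seeing the data) 4 were called in 7 mice, 4 being at p below 0.05 there, 2 with DESeq2, and 0 to 3 when a mouse was left out, with 3 without KO4 and 2 without KO5. Depth limits the 12 genes under 100 counts, of which none passed the filter for 7 mice and only Gabrb1 that for 9.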

Other observations

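KO4, which the study left out, was the highest of the 9 mice for some receptor genes and the lowest for others, and whether it lay at an end more often than other mice was not tested. It was the highest for Gabbr1 with 57.6 CPM, Grin2d with 3.49 CPM, Gria1 with 0.919 CPM, Grik1 with 0.919 CPM and Grik4 with 0.735 CPM. It was the lowest for Gria3 with 13.9 CPM, Gria4 with 1.84 CPM, Grik2 with 1.18 CPM and Grik3 with 0.394 CPM. Its 7 cartilage and bone genes summed to 283 CPM against 39.8 to 134 CPM in the other 8 mice, its fibroblast genes to 21957 CPM against 10967 to 18100 CPM, and its endothelium genes to 906 CPM against 645 to 820 CPM. Its share of mitochondrial reads was 7.88% against 3.81% to 6.54%. Their part in the receptor values was not tested.

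The GABA-B effector channel Kcnj3, named here after its values were seen, varied between 4.65 and 11.2 CPM over the 9 mice and was highest in KO3 and WT3, the mice that were also highest for Gabra3.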
